A study of Mus musculus with 8 samples.

Results

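The 8 genes described here encode the chemokines, chemokine receptors and lymphotoxins that organize lymphoid tissue. They are the chemokines Cxcl13, Ccl19 and Ccl21a, the chemokine receptors Cxcr5 and Ccr7, the lymphotoxins Lta and Ltb, and the lymphotoxin receptor Ltbr. They were chosen by name, with earlier results of these data known, and all 8 were found among the 17921 genes of the table. Each was summed over the cells of a mouse within every annotated cell type, within the structural clusters and within the B cell clusters.

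Lymphotoxin α and lymphotoxin β form a membrane complex on lymphocytes that engages the lymphotoxin β receptor on stromal, endothelial and myeloid cells. Signalling through that receptor and the noncanonical NF-κB pathway induces the chemokines of lymphoid organs. CXCL13 draws CXCR5-bearing B cells into follicles, and CCL19 and CCL21 draw CCR7-bearing T cells and mature dendritic cells into T cell zones. In lungs with lasting inflammation the same genes are known from tertiary lymphoid structures.

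Cells came from 8 orthotopic left lung grafts taken 1 month after transplantation. In 5 mice a B6 lung was placed into a B6 recipient (B6→B6, the non-rejecting controls). In 3 mice the lung came from an HLA donor, a C57BL/6 mouse with Tg(HLA-A2.1)1Enge, a transgene for the human class I molecule HLA-A2 (HLA→B6, the BOS group). BOS, bronchiolitis obliterans syndrome, is chronic rejection of the small airways. All mice were male, every recipient was B6, and none received immunosuppression. Cells of donor and recipient were not told apart, so a graft sample holds both. Each graft was 1 mouse and 1 library, made from 10000 loaded cells with a kit that tags the 3′ ends of transcripts with unique molecular identifiers (UMIs), so counts stand for molecules.

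The table holds 9697 B6→B6 cells and 11081 HLA→B6 cells. Libraries held 1669076 to 12445769 UMIs and had a median of 1356 to 1948 UMIs per cell. Levels below are counts per 1000000 UMIs of the summed cells (CPM), listed by mouse within each group, and means carry the SD over mice (n = 5 B6→B6 and n = 3 HLA→B6). CPM compares the same gene between samples and is not used here to rank 1 gene against another. Intervals and upper limits cover counting error only. Some libraries shared cell barcodes beyond the others: B6→B6 mice 1, 2 and 3 and HLA→B6 mouse 2 were linked in 5 of 28 pairs of libraries at an adjusted p under 0.01 (7 pairs, then with HLA→B6 mouse 1, were under 0.05), and 1014 of all cells (4.88%) carried a barcode found in another library. T cell cluster 7, 954 cells with a median of 832 UMIs, came from B6→B6 mouse 4 alone, so Ccr7, Lta and Ltb in T cells are also given without it. Its cells did carry T cell RNA, with a Cd3d UMI in 72.0% of them.

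**Figure D1:**
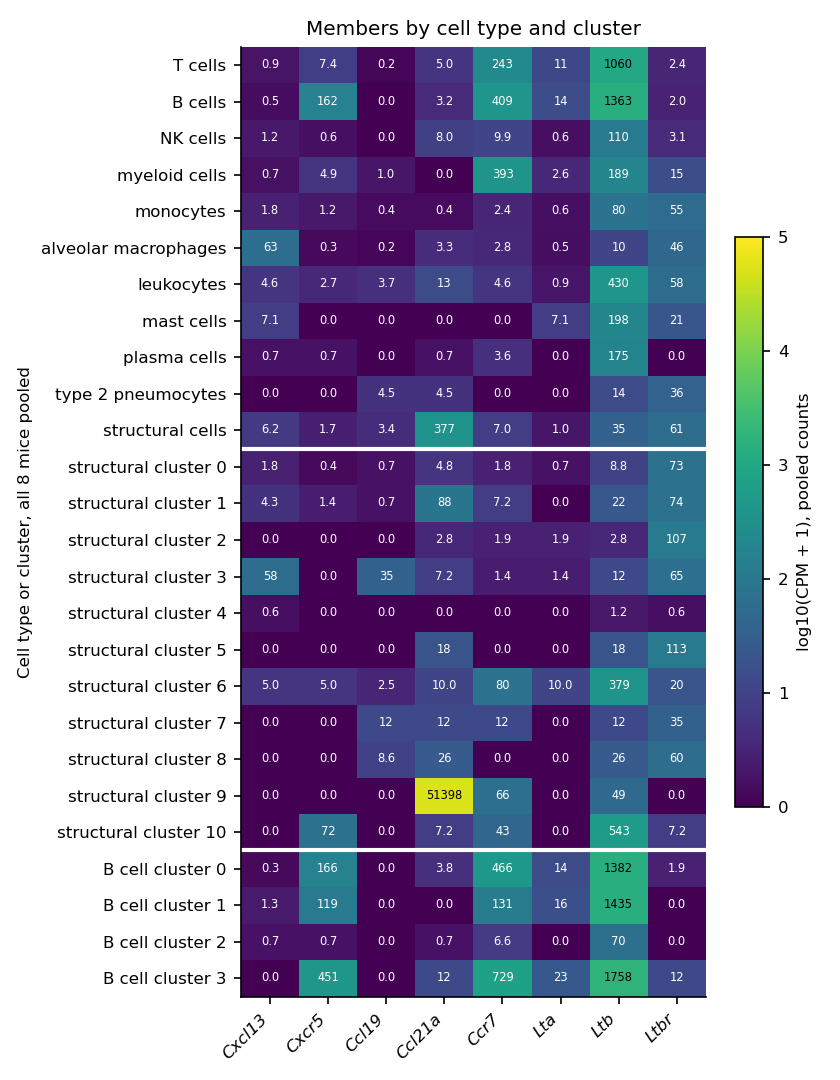
Heat map of the 8 genes (columns) in cell types, structural clusters and B cell clusters (rows), with the cells of all mice pooled. Color is log10(CPM + 1), the printed value is CPM, and the brightest field is Ccl21a in structural cluster 9, at 51398 CPM.

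Cxcl13 and Ccl21a were the most concentrated genes. The 10 richest cells held 85.8% of the 674 Cxcl13 UMIs and 66.5% of the 3404 Ccl21a UMIs. Ccr7 and Ltb were spread over many lymphocytes, and the 10 richest cells held 6.14% of the Ccr7 UMIs and 1.92% of the Ltb UMIs.

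**Figure D2:**
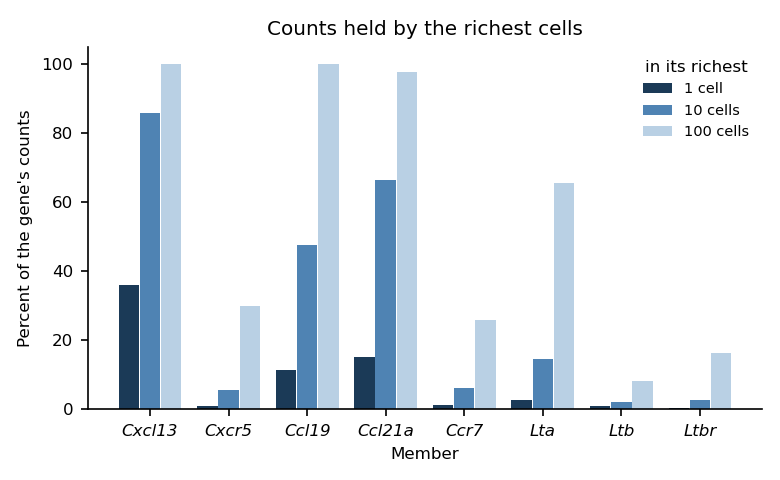
Percent of each gene's counts (y axis) held by its richest cell, its 10 richest and its 100 richest cells, for the 8 genes (x axis), over all cells. A single cell holds 36.1% of the Cxcl13 counts and 15.04% of the Ccl21a counts, while the 10 richest hold 1.92% of the Ltb counts.

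The members lie on 6 chromosomes of GRCm38 by GENCODE vM21. The chemokine neighbours are Ccl19 (chr4:42754525-42756577, minus strand) and Ccl21a (chr4:42772860-42773993, minus strand), 16282 bases apart. Ltb (chr17:35194439-35196320, plus strand) and Lta (chr17:35203165-35205351, minus strand) lie 6844 bases apart with Tnf between them. The others are Cxcl13 (chr5:95956951-95961068, plus strand), Ltbr (chr6:125306571-125313885, minus strand), Cxcr5 (chr9:44511787-44561877, minus strand) and Ccr7 (chr11:99144196-99155077, minus strand).

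Mouse Ccl21 is a family of near-identical copies, which limits what a Ccl21a count can mean. The coding sequence of Ccl21a has 399 bases, and it differed at 2 of them from each of 4 other copies on chromosome 4, Gm21541, Gm13304, Ccl21b and Gm10591. Counted from 1 at the first base of the start codon, with the Ccl21a base first, the differences were T84A in codon 28 and C194T in codon 65. Both sites are printed for Ccl21a and for Gm21541 (chr4:41903610-41904743, plus strand), the copy with the next most UMIs, from GENCODE vM21. The capital marks the differing base.
Ccl21a, coding bases 54 to 114: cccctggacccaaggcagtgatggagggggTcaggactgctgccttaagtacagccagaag
Gm21541, coding bases 54 to 114: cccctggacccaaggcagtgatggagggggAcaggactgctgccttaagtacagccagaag
Ccl21a, coding bases 164 to 224: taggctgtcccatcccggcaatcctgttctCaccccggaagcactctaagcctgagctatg
Gm21541, coding bases 164 to 224: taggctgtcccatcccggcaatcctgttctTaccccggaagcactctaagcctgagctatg
The other copies matched Gm21541 in both windows. After the stop codon, where a 3′ kit reads most, Gm21541 and Gm13304 each differed from Ccl21a at 3 of 393 bases. The table holds 19 UMIs of Gm21541, 8 of Ccl21c and 5 of Gm13304, all in structural cluster 9. How reads were shared among the copies was not tested, and Ccl21a values below may hold UMIs of the others.

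CXCL13, the B cell chemokine of follicles, was found in few cells. Only 73 of all cells (0.351%) had a Cxcl13 UMI, and 25 cells that the authors labelled alveolar macrophages held 590 of its 674 UMIs (87.5%). The alveolar macrophages of the B6→B6 mice held 3, 97, 192, 40 and 0 Cxcl13 UMIs, or 9.89, 203, 391, 17.99 and 0 CPM. Those of the HLA→B6 mice held 253, 5 and 0 UMIs, or 180, 1.36 and 0 CPM. Both groups held a mouse without a count, and 3 mice carried most of it. Single cells set these levels. The richest cell, in HLA→B6 mouse 1, held 243 UMIs, or 36.1% of the gene's total and 2.89% of that cell's own UMIs. A cell of B6→B6 mouse 3 held 157 (4.20% of its UMIs) and a cell of B6→B6 mouse 2 held 68. Without the richest cell of each mouse the levels were 0, 61.6, 71.7, 8.58 and 0 CPM in B6→B6 and 7.15, 0.817 and 0 CPM in HLA→B6. A Cxcl13 UMI was seen in 1.00% of alveolar macrophages (median 2792 UMIs) and in 0.0875% of B cells (median 1598 UMIs), which make little of this chemokine.

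The Cxcl13-bearing cells differed from the other cells of their label in the genes they showed. Of the 25, 68.0% had a UMI of the chemokine Pf4, 52.0% of the folate receptor Folr2, 48.0% of the ficolin Fcna and 32.0% of Cd5l. In the 2469 alveolar macrophages with no Cxcl13 UMI these shares were 2.63%, 0.648%, 1.09% and 0.891%. Of the 4 alveolar macrophage genes on the marker list, Chil3 and Ear2 were seen in 3 and 2 of the 25 Cxcl13-bearing cells against 61.4% and 55.8% of the others. Marco was seen in 5 and Mrc1 in 14 of the 25, against 7.82% and 48.4% of the others, so by share of cells this pair was not lower. By level Marco was higher, at 863 against 78.3 CPM, and Mrc1 lower, at 175 against 295 CPM. The Cxcl13-bearing cells were deeper, with a median of 4383 against 2784 UMIs. Of the 11 cells with at least 5 Cxcl13 UMIs, 11 had Pf4, 7 Fcna, 7 Folr2, 1 Chil3 and 0 Ear2. They are called Cxcl13-bearing cells here. Across 69 sums of mouse and type, the genes whose log2 CPM followed Cxcl13 most closely were Cd5l (Pearson r = 0.68), Fcna (0.66) and Folr2 (0.64). These sums share libraries and the same few cells. Cd5l, Fcna and Folr2 are also among the genes given by cell above. Those shares and these correlations therefore do not stand as separate support.

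Structural cells held another 54 Cxcl13 UMIs. Of these 40 lay in 6 cells of cluster 3, which the authors labelled fibroblasts and smooth muscle cells. Cluster 3 held 5, 0, 33, 0 and 0 in B6→B6 and 1, 0 and 1 in HLA→B6, with 24 in a single cell of B6→B6 mouse 3. T cells, which include follicular helper cells that make CXCL13 in humans, held 8 UMIs in all. The B6→B6 T cells held 0 and the HLA→B6 T cells 5, 1 and 2, too few for the test of levels. Other types were split as well on few UMIs. Monocytes held 9, B cells 2 and structural clusters 0 and 1 held 5 and 6, each in 1 HLA→B6 mouse alone. NK cells held 2, both in B6→B6. Cluster 9 had no Cxcl13 UMI in 32 cells, which allows a share of up to 9.38% of cells with a UMI.

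CCL19, a CCR7 ligand made by T zone stroma and mature dendritic cells, was nearly absent. The table held 44 UMIs in 33 cells, of which 30 were in structural cells and 24 in 15 cells of structural cluster 3. By mouse, structural cells held 1, 0, 2, 3 and 0 UMIs in B6→B6 and 23, 1 and 0 in HLA→B6. Only HLA→B6 mouse 1 went above 3. In cluster 3 the levels were 54.7, 0, 8.83, 27.4 and 0 CPM in B6→B6 and 51.2, 0 and 0 CPM in HLA→B6, so the groups overlapped. B cells and NK cells had 0, which allows shares of cells with a UMI of up to 0.131% and 0.297%. Cells labelled myeloid had 3 UMIs, all in 1 cell. Ccl19 passed the filter on low counts in no cell type.

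CCL21, the CCR7 ligand of lymphatic vessels and high endothelial venules, was the mark of 1 small cluster. Structural cells held 3283 of the 3404 Ccl21a UMIs (96.4%), and structural cluster 9 held 3123 (91.7%). Cluster 9 is 32 cells that the authors labelled Prox1+ endothelial cells. It carried the lymphatic endothelial genes Mmrn1 in 87.5% of cells, Reln in 53.1%, the VEGF-C receptor Flt4 in 40.6%, Prox1 in 37.5% and Pdpn in 28.1%. The capillary gene Car4 had 1 UMI there and the fibroblast markers 0. Of the 32 cells, 30 had a Ccl21a UMI, and the richest held 512, 307, 271, 249 and 247. In the cell with 271, Ccl21a was 14.0% of all UMIs.

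Within cluster 9 the level was high in every mouse but 1. It was 52739, 38674, 17922, 68788 and 47239 CPM in B6→B6 and 57656, 2041 and 26263 CPM in HLA→B6. The cluster had 6, 1, 4, 7 and 1 cells in the B6→B6 mice and 10, 2 and 1 in the HLA→B6 mice, so most of these values rest on very few cells. No mouse but HLA→B6 mouse 1 reached the 10 cells set as a minimum for a test. Cluster 9 made up 1.86, 0.746, 0.538, 0.616 and 0.971% of the structural cells in B6→B6 and 0.501, 0.287 and 0.264% in HLA→B6. Every HLA→B6 share of structural cells was below every B6→B6 share, on numbers as small as 1 cell. As a share of all cells the groups overlapped, with 10 of 6544 cells in HLA→B6 mouse 1 and 1 of 1350 in B6→B6 mouse 2. Fewer cluster 9 cells in the graft and fewer recovered from digested tissue cannot be told apart. For a sum over structural cells neither can fewer such cells and less RNA per cell. The paper named another cluster, structural cluster 0, as lymphatic endothelium by Tmem100 and Lyve1, and found it enriched in BOS grafts. Its cells carry the authors' label MHC II+ endothelial cells. At 500 UMIs per cell, up to 0.686% of them in a mouse had a Ccl21a UMI.

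In all structural cells together, Ccl21a was at 706, 474, 104, 654 and 372 CPM in B6→B6 and 461, 8.88 and 21.3 CPM in HLA→B6. The means were 462 ± 241 and 164 ± 257 CPM (SD). HLA→B6 mice 2 and 3 were below all other mice, and HLA→B6 mouse 1 was within the B6→B6 range. The difference did not pass the test (log2 fold change -1.88, SE 0.97, adjusted p = 0.681, edgeR quasi-likelihood test). Left-out mice moved it from -4.75 to -1.31. Of the 123 UMIs of B6→B6 mouse 2, 81 came from 1 cell of cluster 1. Outside structural cells, Ccl21a was at 46 UMIs in T cells, 22 of them in 1 cell, and 31 in alveolar macrophages, 23 of them in B6→B6 mouse 4. A UMI was found in 1.20% of alveolar macrophages, 1.29% of NK cells and 0.569% of B cells, against 93.8% of cluster 9. The genes most like Ccl21a over the 69 sums were Parva (r = 0.84), Tspan8 (0.83) and Lrrc32 (0.83).

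**Figure D3:**
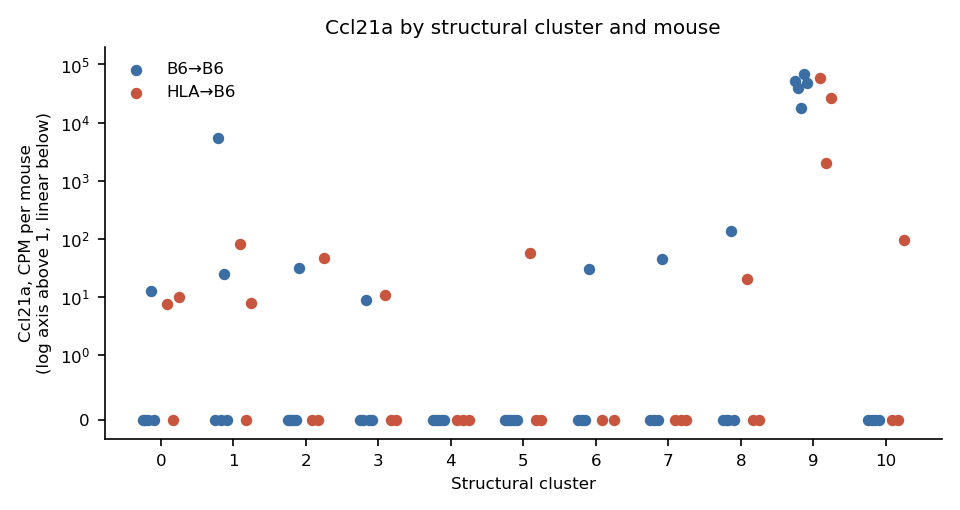
Ccl21a in the structural clusters (x axis) as CPM (y axis, log scale above 1 CPM and linear below), with 1 point per mouse that has cells there, in blue for B6→B6 and red for HLA→B6. Cluster 9 lies between 2041 and 68788 CPM, and its lowest point is HLA→B6 mouse 2.

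CXCR5, the CXCL13 receptor, was carried by B cells. They held 664 of the 776 Cxcr5 UMIs (85.6%), and 22.9% of B cells had one, against 0.0989% of NK cells (median 1484 UMIs). In B cells Cxcr5 was at 164, 188, 160, 155 and 197 CPM in B6→B6 and 138, 106 and 206 CPM in HLA→B6, with means of 173 ± 18.3 and 150 ± 50.8. The highest and the lowest mouse were both HLA→B6. The groups differed by a log2 fold change of -0.22 (SE 0.21, edgeR adjusted p = 1). By all mice, B cells were at 164 ± 32.7 CPM and did not overlap the next type, T cells at 7.37 ± 3.32.

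The authors' B cell clusters 0, 1 and 3 carried Cxcr5, and cluster 2, the plasma cells, had 1 UMI. Cluster 0, with 1895 cells the main one, held 528 UMIs, at 202, 160, 173, 152 and 194 CPM in B6→B6 and 151, 134 and 168 CPM in HLA→B6. In cluster 1 only B6→B6 mice 2 and 3 and HLA→B6 mice 1 and 2 had at least 10 cells, so its other values here and below rest on 5 to 8 cells. It held 91 UMIs, at 0, 335, 86.3, 148 and 154 CPM in B6→B6 and 112, 59.9 and 151 CPM in HLA→B6. The ranges of both groups overlapped in either cluster. At an equal depth of 500 UMIs, 7.83% of cluster 0, 6.43% of cluster 1 and 20.6% of cluster 3 had a UMI. Cluster 3 was shallow, at a median of 533 UMIs, and held 39 of the UMIs. Only 3 mice had at least 10 cells there, at 343 CPM in B6→B6 and at 0 and 540 CPM in HLA→B6. T cells held 68 Cxcr5 UMIs, at 1.98 to 10.7 CPM over the 8 mice, and the mice of both groups overlapped. The lowest was B6→B6 mouse 4, which was at 3.73 CPM without cluster 7. Of the 59 Cxcr5-bearing T cells 17 also had Ccr7. Of the 524 Cxcr5-bearing B cells 228 did. The genes most like Cxcr5 were 4930426D05Rik (r = 0.87), the chemokine receptor Ccr6 (0.87) and Ms4a1, which encodes CD20 (0.86).

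CCR7, the receptor for CCL19 and CCL21, had 5231 UMIs in 2285 cells. T cells held 42.5% of them, B cells 32.1% and cells labelled myeloid 23.1%. The means over all mice were 428 ± 98.7 CPM in B cells, 368 ± 238 in myeloid cells and 298 ± 106 in T cells, and these 3 ranges overlapped. NK cells followed at 12.5 CPM. There 14 of the 16 UMIs were in B6→B6 mouse 1, and 9 in a single cell. A Ccr7 UMI was seen in 41.3% of B cells, 22.1% of T cells (median 1648 UMIs) and 16.95% of myeloid cells (median 3400 UMIs), against 0.559% of monocytes (median 2156 UMIs).

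In T cells Ccr7 was at 453, 304, 332, 250 and 432 CPM in B6→B6 and at 197, 152 and 267 CPM in HLA→B6. The means were 354 ± 86.3 and 205 ± 57.9 CPM. The groups overlapped through B6→B6 mouse 4, the mouse with T cell cluster 7. The log2 fold change was -0.84 (SE 0.26), which did not pass the test (edgeR adjusted p = 0.351). Without cluster 7, B6→B6 mouse 4 was at 417 CPM and the groups no longer overlapped, as held for 6.57% of the 7164 genes tested in T cells. It was then -1.03 (edgeR adjusted p = 0.0700). Cluster 7 itself was at 61.2 CPM.

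Ccr7 was also taken in T cells with either coreceptor. Those with a Cd8a UMI and no Cd4 were at 516, 374, 375, 262 and 422 CPM in B6→B6 and 206, 128 and 185 CPM in HLA→B6. These groups did not overlap, as held for 5.5% of the genes. T cells with Cd4 and no Cd8a were at 310, 294, 253, 216 and 285 CPM in B6→B6 and at 146, 196 and 383 CPM in HLA→B6. HLA→B6 mouse 3 was the highest of all mice there. B6→B6 mouse 4 had 417 cells of cluster 7 among its 540 cells with Cd8a and 98 among its 153 with Cd4. Without them it was at 520.3 CPM in the first subset and at 388 CPM, above HLA→B6 mouse 3, in the second. The difference between these subsets was not tested.

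In B cells Ccr7 was at 523, 431, 416, 445 and 551 CPM in B6→B6 and at 273, 301 and 485 CPM in HLA→B6, with means of 473 ± 60.2 and 353 ± 115. HLA→B6 mice 1 and 2 were below every B6→B6 mouse, and mouse 3 was within the B6→B6 range. This gave a log2 fold change of -0.41 (SE 0.20, edgeR adjusted p = 1). Cluster 0 carried 1485 of the 1679 B cell UMIs, at 633, 497, 444, 476 and 561 CPM in B6→B6 and 334, 417 and 484 CPM in HLA→B6. Cluster 1 was lower in all mice, most with few cells, at 54.2, 144, 201, 178 and 128 CPM in B6→B6 and 112, 132 and 50.2 CPM in HLA→B6. The plasma cells of cluster 2 had 9 UMIs.

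In cells labelled myeloid the group means stood in the opposite order. Ccr7 was at 470, 149, 287, 136 and 178 CPM in B6→B6 and at 471, 848 and 404 CPM in HLA→B6. The means were 244 ± 140 and 574 ± 240 CPM. B6→B6 mouse 1 was among the HLA→B6 values, and 40 of its Ccr7 UMIs came from 1 cell. Without the richest cell of each mouse the levels were 0, 101, 203, 108 and 29.4 CPM in B6→B6 and 433, 757 and 78.3 CPM in HLA→B6. Their log2 fold change of 1.25 (SE 0.42) did not pass the test (edgeR adjusted p = 0.557). With no filter on low counts it was 1.31, with an edgeR adjusted p of 0.0485.

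Few cells carried it. Of the 755 cells labelled myeloid 128 had a Ccr7 UMI, and 67 had at least 5. These 67 came as 1, 4, 5, 7 and 1 from the B6→B6 mice and as 23, 25 and 1 from the HLA→B6 mice. They were 0.106, 0.296, 0.205, 0.171 and 0.115% of all cells of the B6→B6 mice and 0.351, 0.760 and 0.0803% of all cells of the HLA→B6 mice. HLA→B6 mice 1 and 2 were above, and mouse 3 was below, every B6→B6 mouse.

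These 67 Ccr7-rich cells carried some genes of mature dendritic cells that migrate to lymph nodes. Cd200 and Ccl17 of the same marker list, and general dendritic cell markers other than Flt3, are not given by cell here. The shares below were not taken at equal depth. Of them 89.6% had a UMI of Fscn1, which bundles actin in dendrites, 83.6% of Cacnb3, 71.6% of Il4i1, 59.7% of the dendritic cell receptor Flt3 and 43.3% of the chemokine Ccl22. In the 627 cells of the same label with no Ccr7 UMI, Fscn1 was seen in 6.06%, Cacnb3 in 1.44%, Il4i1 in 7.02%, Flt3 in 26.3% and Ccl22 in 2.55%. Cxcr5 was seen in 11.9% of the Ccr7-rich cells and 0.797% of the others. Cd79a of B cells was in 0 of the 67, and Cd3e of T cells in 3, against 22.5% of the cells with no Ccr7 UMI. The 7 T cell markers summed to 470 to 6000 CPM in B6→B6 and 50.4 to 1211 CPM in HLA→B6 cells labelled myeloid. The 6 markers of mature dendritic cells summed to 350 to 2432 CPM in B6→B6 and 1165 to 2001 CPM in HLA→B6, and the 6 general dendritic cell markers to 215 to 2162 and 790 to 840 CPM. The part of this make-up in the Ccr7 difference was not tested. Over the 69 sums the genes most like Ccr7 were Slamf6 (r = 0.82), St8sia6 (0.78) and Dtx1 (0.78).

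**Figure D4:**
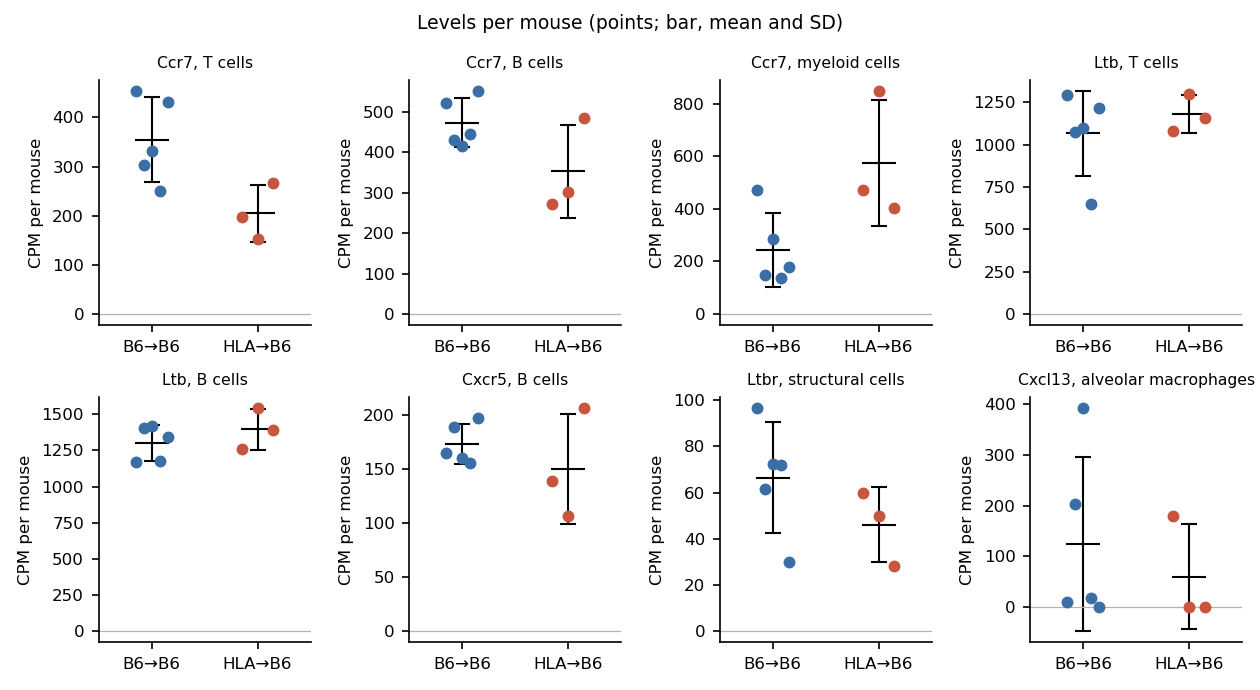
Levels of members by group in 8 pairs of gene and cell type, in CPM, with 1 point per mouse (blue B6→B6, red HLA→B6), a line at the group mean and bars of 1 SD. In myeloid cells Ccr7 has means of 244 and 574 CPM, and in T cells 354 and 205 CPM, and the points of both groups overlap in each.

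Lymphotoxin α, the secreted or complex-bound ligand, was a rare transcript. Of its 186 UMIs 100 were in T cells and 58 in B cells. In T cells it was at 14.3, 20.9, 15.2, 8.41 and 5.37 CPM in B6→B6 and 13.7, 7.65 and 4.24 CPM in HLA→B6, and in B cells at 10.3, 28.1, 15.4, 10.5 and 4.57 CPM in B6→B6 and 17.8, 12.5 and 12.3 CPM in HLA→B6. The groups overlapped in both. Only T cells passed the filter on low counts, with a log2 fold change of -0.49 (SE 0.45, edgeR adjusted p = 0.902). NK cells, known as a source of lymphotoxin, had 1 Lta UMI in 1011 cells. Of the 85 Lta-bearing T cells 66 also had Ltb, and of the 56 Lta-bearing B cells 48 did, where 65.2% of all T cells and 80.1% of all B cells had an Ltb UMI. Without cluster 7 the log2 fold change of Lta in T cells was -0.63 (edgeR adjusted p = 0.716). The genes most like Lta were Ccr6 (r = 0.79), Tmem108 (0.79) and Gm8369 (0.76).

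Lymphotoxin β, which anchors the complex to the membrane, was in most B and T cells. Ltb had 17587 UMIs, 9700 in T cells and 5591 in B cells, and was seen in 80.1% of B cells and 65.2% of T cells, against 2.13% of alveolar macrophages. T cells were at 1292, 1075, 1100, 648 and 1216 CPM in B6→B6 and 1081, 1299 and 1159 CPM in HLA→B6. B6→B6 mouse 4 was the lowest, and its cluster 7 was at 263 CPM, its other T cells at 987. The log2 fold change was 0.10 (SE 0.22, edgeR adjusted p = 0.978), and -0.03 without cluster 7. B cells were at 1169, 1404, 1418, 1176 and 1339 CPM in B6→B6 and 1258, 1540 and 1392 CPM in HLA→B6, with means of 1301 ± 121 and 1397 ± 141. In B cells the log2 fold change was 0.11 (SE 0.14, edgeR adjusted p = 1).

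The other types held less Ltb, in an order whose neighbours overlapped. The means over all mice were 1337 ± 129 CPM in B cells, 1109 ± 206 in T cells, 516 ± 228 in cells labelled leukocytes, 182 ± 65.6 in myeloid cells, 115 ± 47.1 in NK cells, 103 ± 56.3 in monocytes, 33.6 ± 19.6 in structural cells and 10.4 ± 8.87 in alveolar macrophages. NK cells were at 133, 69.6, 78.5, 35.0 and 154 CPM in B6→B6 and at 134, 151 and 162 CPM in HLA→B6. HLA→B6 mice 1 and 2 were within the B6→B6 range and mouse 3 above it. The log2 fold change of 0.78 (SE 0.32) did not pass the test (edgeR adjusted p = 0.998). In the B cell clusters, cluster 0 was at 1189 to 1458 CPM in B6→B6 and 1286 to 1566 CPM in HLA→B6. Cluster 1, with the few cells given above, spread from 333 to 1353 CPM in B6→B6 and from 903 to 1806 CPM in HLA→B6. A single cell of HLA→B6 mouse 1 there, labelled a plasma cell, held 133 Ltb UMIs.

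Ltb in structural cells lay mostly in lymphocyte clusters. Clusters 6 and 10, labelled T cells and B cells by the authors and 3.03% of the structural cells, held 227 of the 309 UMIs (73.5%). Structural cells as a whole were at 6.28, 34.7, 35.8, 31.6 and 38.1 CPM in B6→B6 and 37.6, 72.1 and 13.0 CPM in HLA→B6. Without these clusters they were at 4.20 to 12.3 CPM in B6→B6 and 7.17 to 15.7 CPM in HLA→B6, near the alveolar macrophages. The genes most like Ltb over the 69 sums were Rbm38 (r = 0.84), Limd2 (0.79) and Il16 (0.79).

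The lymphotoxin β receptor was found mostly outside the lymphocytes. Of 1388 Ltbr UMIs, 531 were in structural cells (38.3%), 433 in alveolar macrophages and 269 in monocytes. T, B and NK cells had 22, 8 and 5, with a UMI in 0.414, 0.350 and 0.495% of cells, against 14.8% of alveolar macrophages, 12.2% of monocytes and 8.63% of structural cells (median 1127 UMIs). The means over mice of 65.4 ± 26.3 CPM in leukocytes, 58.8 ± 22.8 in structural cells, 55.5 ± 7.34 in monocytes and 44.9 ± 11.1 in alveolar macrophages overlapped. Pooled over mice, which differ in level and in cells per cluster, Ltbr was at 113 CPM in cluster 5, labelled Vcam1+ endothelial cells (a UMI in 15.7% of cells), and at 107 CPM in cluster 2 (17.6%). The fibroblasts and smooth muscle cells of cluster 3 were at 65 CPM (11.3%) and the endothelial cluster 0 at 73 CPM (8.04%). Median depth was 1356 UMIs per cell in cluster 5, 1869 in cluster 2 and 1069 in cluster 0, and no order is read from these values. Cluster 9, the source of Ccl21a, had no Ltbr UMI in 32 cells, which allows a share of up to 9.38% of cells with a UMI and sets no limit on cells that express the gene.

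Structural Ltbr was at 96.4, 61.6, 72.4, 72.1 and 29.9 CPM in B6→B6 and at 59.9, 49.9 and 28.3 CPM in HLA→B6, with means of 66.5 ± 24.1 and 46.1 ± 16.1. B6→B6 mouse 5 was among the HLA→B6 values. The log2 fold change was -0.53 (SE 0.20) and did not pass the test (edgeR adjusted p = 0.405). In monocytes Ltbr stayed in a narrow band, at 45.9, 56.2, 50.3, 68.0 and 64.3 CPM in B6→B6 and 54.0, 50.9 and 54.1 CPM in HLA→B6 (log2 fold change -0.16, SE 0.24, edgeR adjusted p = 0.999). In alveolar macrophages it was at 62.6, 43.8, 44.8, 53.1 and 32.7 CPM in B6→B6 and 51.2, 43.0 and 28.0 CPM in HLA→B6 (log2 fold change 0.08, SE 0.24, edgeR adjusted p = 0.877). The mean CPM there was lower in HLA→B6, opposite in sign to the fold change, so no direction is read from these values. The genes most like Ltbr were App (r = 0.86), Sirpa (0.82) and Dstn (0.81).

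Between rejecting and control grafts, no member passed the test in any cell type. Members had enough counts for 16 pairs of member and type, and edgeR called 0 of the 16 at an adjusted p under 0.05. Among all genes tested it called 0.0698% in T cells, 0.117% in B cells, 0.0% in NK cells, 0.0% in myeloid cells, 0.023% in monocytes, 12.3% in alveolar macrophages and 0.604% in structural cells. DESeq2 also called 0 members. At an unadjusted p under 0.05 edgeR had 4 of the 16: Ccr7 in T cells, Ccr7 in myeloid cells, Ltb in NK cells and Ltbr in structural cells. Of all genes 7.45% did so in T cells, 4.89% in myeloid cells, 3.25% in NK cells and 8.34% in structural cells, against 4.72% in B cells, 5.03% in monocytes and 29.1% in alveolar macrophages. DESeq2 had 3 members at that level. In none of the 16 did the CPM of the groups separate, as it did for 5.47% of genes in T cells, 3.1% in B cells, 2.81% in NK cells, 4.64% in myeloid cells, 3.54% in monocytes, 22.9% in alveolar macrophages and 0.925% in structural cells. Cxcl13 in alveolar macrophages had the least certain difference, with means of 124 ± 171 and 60.4 ± 103 CPM and a log2 fold change of -0.76 (SE 1.40, edgeR adjusted p = 0.765). It became 1.79 when cells with shared barcodes were left out.

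Alveolar macrophages were also the type whose markers moved with the group. Their 4 defining markers summed to 8743 to 11144 CPM in B6→B6 and 335 to 4314 CPM in HLA→B6, and 4 monocyte markers to 52.8 to 265 and 196 to 535 CPM. The part of this in the Cxcl13 and Ltbr values of that type was not tested.

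**Figure D5:**
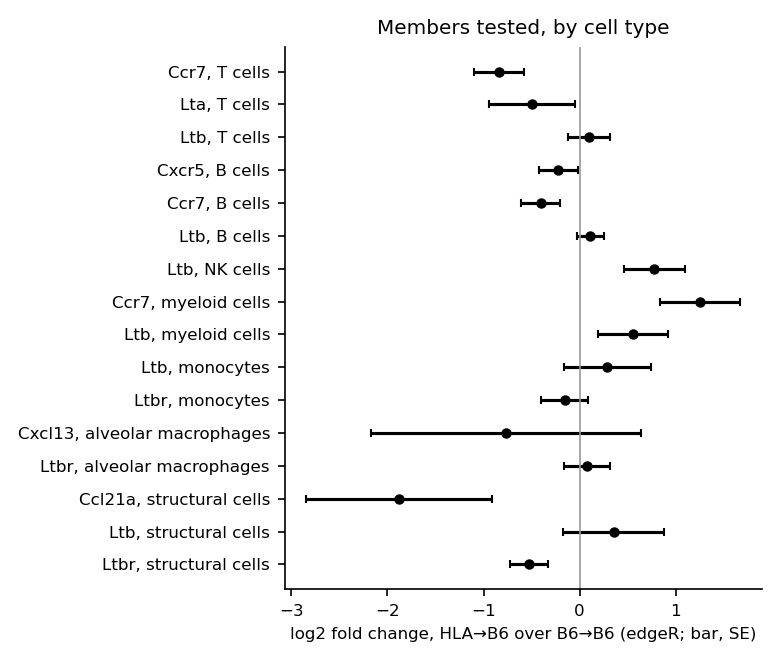
Log2 fold change, HLA→B6 against B6→B6, of the 16 pairs of member and cell type with enough counts, with bars of 1 SE from edgeR. Ccr7 lies at -0.84 in T cells and at 1.25 in myeloid cells, and no pair passed the adjusted threshold.

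The share of cells with a UMI, taken at an equal depth of 1000 UMIs per cell (500 in structural cells), gave a second measure. For Ccr7 in T cells it was 23.5 ± 5.27% in B6→B6 and 14.1 ± 2.89% in HLA→B6. In B6→B6 mouse 4 it was 18.6% with T cell cluster 7 and 27.8% without it, above every HLA→B6 mouse either way. In B cells it was 34.2 ± 2.77% and 27.1 ± 2.70%. In myeloid cells it was 7.92 ± 2.00% and 20.3 ± 7.11%. There B6→B6 mice 1 and 5 and HLA→B6 mouse 3 had 14 cells each at that depth, with shares of 7.14, 6.53 and 13.4%, so these rest on very few cells. For Ltbr in structural cells it was 4.06 ± 0.655% and 2.60 ± 0.537%. The groups did not overlap in these 4 of the 16 pairs. Of all genes tested 5.82% in T cells, 3.28% in B cells, 4.53% in myeloid cells and 3.92% in structural cells were so separated, and 2.75% in NK cells, 3.77% in monocytes and 23.6% in alveolar macrophages, where no member was. Each of the 4 had p = 0.0357 in a two-sided exact permutation test over the 56 splits of the mice, the smallest p it can give. The adjusted p was 0.143 over the 16 pairs, so none passed after adjustment. With 4 pairs at that smallest p, adjustment over 16 cannot go under 0.05, so this test could not call any of them. At the full depth the means were 33.0 and 22.4% in T cells, 45.2 and 37.4% in B cells, 8.48 and 22.3% in myeloid cells and, for Ltbr in structural cells, 10.2 and 6.21%. Within structural cluster 0 at 500 UMIs per cell the Ltbr shares overlapped, at 1.99 to 6.49% in B6→B6 and 1.78 to 3.59% in HLA→B6. The part of the mix of structural clusters in the Ltbr shares was not tested. Ltb shares were 57.6 and 61.9% in T cells (exact permutation p = 0.679) and 68.2 and 69.4% in B cells (exact permutation p = 0.643).

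Whether the groups differed more in T than in B cells of the same mouse was tested for Ccr7 and Ltb. The log2 CPM of T cells minus that of B cells was -0.44 ± 0.24 in B6→B6 and -0.77 ± 0.27 in HLA→B6 for Ccr7 (difference -0.33, exact permutation p = 0.143). For Ltb it was -0.32 ± 0.37 and -0.24 ± 0.02 (difference 0.08, exact permutation p = 0.714). Neither passed.

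Of the 42 genes in 5 lists of the wider pathway, 41 were in the table. The lists were chosen with earlier results of these data known, so the shares called in them do not test the lists. In T cells edgeR called 0 of 8 tested in lymphotoxin β receptor signalling and 0 of 2 in the TNF arm. It called 0 of 2 in the high endothelial venule and lymphoid stroma list. In the follicular helper and germinal center list it called 1 of 4, against 0.0698% of all genes in T cells. That was Pdcd1, which encodes PD-1 and marks follicular helper and exhausted T cells. It rose from 31.3 ± 21.5 to 274 ± 133 CPM (log2 fold change 3.07, SE 0.45, edgeR adjusted p = 0.0402). It was higher in all 3 HLA→B6 mice, at 123 to 369 CPM, than in any B6→B6 mouse, at 11.9 to 57.5 CPM. The groups were separated, in either direction, for 5.47% of the genes tested in T cells. The call was lost without B6→B6 mouse 1 or 5 or without HLA→B6 mouse 1 or 2, with an edgeR adjusted p up to 0.225. Without T cell cluster 7 the edgeR adjusted p was 0.00208. The homing and egress genes of T cells had 0 of 8 called, 7 of 8 below 0 and a median log2 fold change of -0.43, where all genes tested had -0.02. At an unadjusted edgeR p under 0.05, 4 of the 8 were lower in HLA→B6 and 0 higher. In either direction 7.45% of all genes in T cells were at that level. These values include T cell cluster 7. Klf2, which keeps T cells circulating, was at 1626 ± 535 and 909 ± 244 CPM (log2 fold change -0.88, edgeR adjusted p = 0.504). Il7r, the receptor for the T cell survival factor IL-7, was at means of 499 and 496 CPM, and the integrin chain Itgb7 at 384 and 292 CPM.

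In alveolar macrophages 7 pathway genes passed. They were 1 of 5 tested in lymphotoxin β receptor signalling, 1 of 2 in the TNF arm and 3 of 4 in homing and egress. The rest were 2 of 4 in the high endothelial venule and lymphoid stroma list, with 0 of 2 in the follicular helper list. Relb, the noncanonical NF-κB subunit downstream of the lymphotoxin β receptor, rose from 9.92 to 30.1 CPM (log2 fold change 1.58, edgeR adjusted p = 0.0203), a call lost without HLA→B6 mouse 2. Il7r rose from 13.6 to 102 CPM (log2 fold change 3.64, edgeR adjusted p = 0.00916). Vcam1, the adhesion molecule, rose from 16.1 to 99.8 CPM (edgeR adjusted p = 0.0423), and the integrin chains Itga4 and Itgb7 rose by 0.99 and 2.11 on the log2 scale. Ch25h, which makes the oxysterol ligand precursor of the receptor Gpr183, fell by 2.87 on the log2 scale, from 39.1 to 4.59 CPM (edgeR adjusted p = 0.00839). Tnfrsf1b rose by 0.71 on the log2 scale. Ch25h and Il7r kept their calls in all alternatives run. Tnfrsf1b kept its call in 8 of 16, Vcam1 in 9 of 16 and Itgb7 in 8 of 11. Itga4 kept its call in 15 of 16 and lost it with the replicate number as a block (edgeR adjusted p = 0.0692), which also ended the call of Itgb7. These genes were called in the type in which 12.3% of all genes were, and in which the identity markers differed between the groups as given above.

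No pathway gene passed in B cells, NK cells, myeloid cells, monocytes or structural cells by edgeR. Means of Klf2 in B6→B6 and HLA→B6 were 2348 and 1750 CPM in B cells, 2430 and 1860 CPM in NK cells and 2669 and 2501 CPM in structural cells. In B cells Birc3, a target of NF-κB, was at 133 and 126 CPM, and Nfkb2, the other noncanonical NF-κB gene, at 103 and 105.4 CPM. In structural cells Cxcl12, the stromal CXCR4 ligand, was at 226 and 241 CPM. The pathway genes with the smallest p in myeloid and structural cells, named after their values were seen, were Relb and Vcam1. Relb was at means of 102 and 342 CPM in myeloid cells, the cells with the higher mean of Ccr7 in HLA→B6 (log2 fold change 1.73, edgeR adjusted p = 0.234). Vcam1 was at means of 83.5 and 27.2 CPM in structural cells (log2 fold change -1.46, edgeR adjusted p = 0.283).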

How the data were processed

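Single-cell suspensions of 8 lung grafts were sequenced with the 10x Genomics 3′ kit. The authors deposited UMI counts per gene and cell, made with Cell Ranger on mm10 (GRCm38), with barcodes under 200 UMIs and genes in fewer than 3 cells removed. They state that free RNA was removed with SoupX. The deposited values are whole counts with no normalization, and no source used here says whether they precede that step. Cell types and clusters are the authors' labels, from Seurat and clustifyr. In the table used here 17 cells had fewer than 200 UMIs, and all cells were kept.

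Counts were summed per mouse and type (at least 10 cells), filtered with filterByExpr (minimum count 10), normalized by TMM and compared by edgeR's quasi-likelihood test with Benjamini-Hochberg adjustment over all genes of the type, threshold 0.05. Where edgeR is named, p-values come from it. CPM is the count over the UMI total of the sum, without TMM, and a pseudocount of 1 was used in log2 CPM. Shares of cells with a UMI at equal depth are expected values of random draws, and cells under that depth were left out. The 3 most alike genes were named for each member with at least 50 UMIs. Pathway genes were named where they passed the test or, where none of a list did, for the highest CPM, and marker genes where a result touched their cell type. A few others are said to be named after their values were seen.

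No doublet caller was run, so cells with genes of 2 types may be doublets. Alternatives were RLE scaling, DESeq2, all genes without filterByExpr, a minimum of 20 cells, cells with at least 500 UMIs, removal of cells with shared barcodes, the linked libraries as a block, the replicate number as a block, no thinning, and each mouse left out in turn. Added after the data were seen were T cells without cluster 7, sums without the richest cell of each mouse, and counts per cell. Mice numbered alike did not deviate together in every pair (correlations of deviations from -0.25 to 0.32; the mice numbered 2, whose libraries shared barcodes, were above 0 in all 7 types), so the numbers were not taken to pair mice. The cell names number the HLA→B6 libraries 2, 3 and 5 and the labels 1, 2 and 3. The labels were followed, and values with the replicate block depend on that. The methods were tested on simulated data. The members and the gene lists were chosen with earlier results of these data known. R 4.3.3 was used with DESeq2 1.42.0, limma 3.58.1 and edgeR 4.0.16, and Python 3.11.15 with pandas 2.3.3, numpy 2.4.6, matplotlib 3.10.9 and scipy 1.17.1.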

Additional observations from a re-analysis of the deposited data

Results flagged for a closer look

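Of 32 groups of 5 mice examined by Dixon's test at the 95% level, 2 held a mouse far from the others, where chance gives about 1 in 20. The share of structural cells with a Ccl21a UMI at equal depth was 0.436% in B6→B6 mouse 3, the lowest of 5, with the others up to 1.68%. The level of Ltb in structural cells was 6.28 CPM in B6→B6 mouse 1, with the other 4 mice between 31.6 and 38.1 CPM. That mouse had 1 cell in the structural clusters labelled T cells and B cells.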

How the results depend on the processing

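The 16 fold changes of members kept their direction in 247 of 257 values under the alternatives run, and 1 passed the threshold. That was Ccr7 in myeloid cells with no filter on low counts, by edgeR, which took the members called there from 0 to 1. The log2 values that turned direction under an alternative were Ltbr in monocytes (0.045) and in alveolar macrophages (-0.069) with the replicate block, Cxcl13 in alveolar macrophages without shared barcodes (1.79) and with the linked libraries as a block (0.60), and Ltb in T cells without cluster 7 (-0.031). Leaving out each mouse moved Ltb from -0.039 to 0.20 in T cells, from -0.30 to 0.72 in monocytes and from -0.084 to 0.65 in structural cells, and Ltbr in alveolar macrophages from -0.024 to 0.22. The group difference of T minus B cells for Ltb was -0.040 with the replicate block and -0.043 without cluster 7, and ran from -0.056 to 0.19 with left-out mice. Without thinning, the differences in percent of cells turned for Ltb in B cells (-0.37), myeloid cells (-1.23) and structural cells (-0.032) and for Ltbr in alveolar macrophages (5.24). With left-out mice the Ltb differences ran from -2.43 to 3.87 in monocytes, from -1.32 to 3.15 in B cells and from -0.0033 to 0.673 in structural cells, and Ltbr in alveolar macrophages from -1.12 to 0.383. The cause of these turns was not tested. With the replicate block, Ccr7 was at -0.85 in T cells and 0.98 in myeloid cells, and no member call changed. Without HLA→B6 mouse 2, Ccr7 in myeloid cells was 0.84.

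The number of genes called in a type moved more than the members did. It went from 5 to between 5 and 61 in T cells, from 7 to between 2 and 73 in B cells, from 0 to between 0 and 38 in NK cells, from 0 to between 0 and 153 in myeloid cells, from 1 to between 1 and 98 in monocytes, from 712 to between 253 and 1253 in alveolar macrophages and from 49 to between 16 and 130 in structural cells. DESeq2 called 37, 2, 0, 25, 15, 709 and 94 genes in these types. Ccl19 had too few counts in every type for a comparison of levels, and Lta in all but T cells.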
